A study of Mus musculus with 8 samples.

Results

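Long intergenic noncoding RNAs (lincRNAs) are transcripts that lie between protein-coding genes and are not annotated to encode a protein. Of the 5559 lincRNA genes in the deposited expression table of 54532 genes, 52 had a mean FPKM of at least 2 over the 8 libraries, after *H19*, *Meg3* and *Rian* had been set aside. FPKM are fragment counts divided by gene length and library size, so levels can be compared between genes. These 52 genes were chosen by their mean FPKM over all 8 libraries, and their being expressed is therefore not a result. The reach of 2 FPKM was met in both settings by 35 of them, through the *in vivo* samples only by 10 and through the *in vitro* samples only by 7. The last 17 are in the set because 1 setting is high, so counts over the 52 genes are given as a description.

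The cells were MICFs, cardiac fibroblasts taken from the infarct area of adult male C57BL/6 mice after myocardial infarction (MI). All 4 groups carried Tet-On lentiviruses, which act only with doxycycline (Dox), for MGT (*Mef2c*, *Gata4* and *Tbx5* in a single construct), *Myocd*, *Sall4* and eGFP, a set of factors used to turn fibroblasts into induced cardiomyocytes (iCMs). The *in vivo* samples were infected MICFs transplanted into MI hearts of C57BL/6 mice, which drank Dox and received tacrolimus, methylprednisolone and mycophenolate mofetil against rejection. The *in vitro* samples were infected MICFs kept in culture with Dox, for which the methods name a medium that also holds SB431542, an inhibitor of TGF-β receptors, and baricitinib, an inhibitor of JAK kinases. Living in a heart, the drugs given to the mice and the inhibitors in the medium cannot be told apart. eGFP+ cells were sorted on Day 7 (week 1) and Day 14 (week 2), with 2 libraries per group. The sources used here do not say whether replicates came from separate animals or wells, so p-values measure only the spread between these samples, which may be technical. The preparation was not purified before infection, and in bulk samples fewer cells of a type and less RNA per cell cannot be told apart.

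LincRNAs work in several ways. Some are held in the nucleus and build or enter nuclear bodies, as *Neat1* builds paraspeckles and *Malat1* sits in nuclear speckles. Some act in the cytoplasm by binding proteins or microRNAs, as Norad (*2900097C17Rik*) binds the Pumilio proteins, which repress mRNAs, and Cyrano (*1700020I14Rik*) binds miR-7. The *Snhg* genes host snoRNAs in their introns, and their spliced RNA is often degraded by nonsense-mediated decay. Others hold short reading frames, or lie next to coding genes with which they share a promoter.

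The stretches below describe some of these genes by sequence, and a link between them and the later values was not tested. *Gm10076*, the gene with the highest mean, holds an exact copy of the coding sequence of *Rpl41*, a ribosomal protein gene, with 0 mismatches over 78 bases. The coding exons of *Rpl41* (GRCm38, chr10:128548387-128548960, minus strand) and the stretch of the *Gm10076* transcript (chr14:105681869-105681946, plus strand) are shown with the start and stop codons in capitals, from the GENCODE vM21 transcripts.
Rpl41: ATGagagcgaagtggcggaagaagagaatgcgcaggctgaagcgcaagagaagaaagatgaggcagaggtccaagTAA
Gm10076: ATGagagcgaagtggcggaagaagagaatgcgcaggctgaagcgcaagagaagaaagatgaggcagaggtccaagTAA
Cyrano is shown for its site for miR-7, at chr2:119602136-119602161 on the plus strand. The mature miRNA is from RefSeq with its seed, bases 2 to 8, in capitals, and the capitals in the site mark the match to the seed. Of the 23 bases of the miRNA, 22 were matched in order by the site.
mmu-miR-7a-5p: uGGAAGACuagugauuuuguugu
1700020I14Rik site: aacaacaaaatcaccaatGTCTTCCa
Norad is known for repeats of the Pumilio motif. Its transcript of 4915 bases held TGTANATA 11 times on the sense strand, against 4 times in *Neat1*, and 39 of the 52 genes had none. Among 5555 lincRNA genes 85.9% had none, and only Norad had as many as 11.

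The snoRNA hosts *Snhg12* and *Snhg18* are shown at their starts, because many snoRNA hosts begin with a C followed by a run of pyrimidines, as mRNAs of ribosomal proteins do. The 60 bases run from 25 before to 35 from the annotated start (RefSeq, GRCm38.p6; chr4:132308653-132308712, plus strand, and chr15:32244628-32244687, minus strand), with that run in capitals.
Snhg12: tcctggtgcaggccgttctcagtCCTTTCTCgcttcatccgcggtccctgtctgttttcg
Snhg18: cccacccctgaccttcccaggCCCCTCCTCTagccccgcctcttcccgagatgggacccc
A C with 4 pyrimidines after it, all within 5 bases before the start to 10 bases from it, was found in 7 of the 27 members with a RefSeq promoter and in 18.3% of 32851 promoters. The promoter of *Gm36377* (chr13:70655787-70656086, minus strand) is shown for the match to GAAANNGAA, the core of the element that interferon-activated factors bind, here on the reverse strand and in capitals. The promoter of *5430431A17Rik* (chr7:44484267-44484566, plus strand) is shown for its repeats.
Gm36377: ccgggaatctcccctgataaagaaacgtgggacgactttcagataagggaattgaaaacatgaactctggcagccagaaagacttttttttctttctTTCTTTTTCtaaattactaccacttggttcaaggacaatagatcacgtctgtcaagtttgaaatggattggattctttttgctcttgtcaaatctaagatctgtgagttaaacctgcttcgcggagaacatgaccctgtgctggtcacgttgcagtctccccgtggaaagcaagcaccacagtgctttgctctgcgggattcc
5430431A17Rik: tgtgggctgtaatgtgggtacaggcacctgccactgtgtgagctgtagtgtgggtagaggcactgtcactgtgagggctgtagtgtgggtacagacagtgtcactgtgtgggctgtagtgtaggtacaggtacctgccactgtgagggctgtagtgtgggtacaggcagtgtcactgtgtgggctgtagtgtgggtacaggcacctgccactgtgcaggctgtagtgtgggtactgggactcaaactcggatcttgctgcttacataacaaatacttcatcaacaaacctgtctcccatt
The core GAAANNGAA was in 3 of the 27 matched promoters and in 8.56% of all promoters, on either strand. The unit GCTGTAGTG, which was read from the *5430431A17Rik* promoter itself, occurred in it 6 times, and 0.210% of all promoters held it at least once. A match describes these letters only, not a site in use.

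Between 12304242 and 14546904 fragments per library fell on genes. The library size behind the FPKM was 0.863 to 0.915 times those fragments in the *in vivo* samples and 1.09 to 1.15 times in the *in vitro* samples, so the deposited values already hold a scaling between libraries. Removing it took the median log2 difference of all tested genes between the settings to -0.34 at week 1, to -0.32 at week 2 and to -0.33 over both weeks. Mitochondrial genes took 3.55% to 4.14% of the summed FPKM *in vivo* and 7.18% to 8.14% *in vitro*. Fibroblast markers summed to 10246 to 13336 FPKM *in vivo* and to 2174 to 3305 *in vitro* (6 of 10 higher over both weeks). Macrophage markers were plentiful in every library, at 2171 to 3504 FPKM *in vivo* and 5398 to 6624 *in vitro* (2 of 16 higher and 5 lower). Cardiomyocyte markers, at 16.4 to 48.8 against 166 to 1225 FPKM, were lower *in vivo* for 7 of 9 and higher for 1, and mesothelial markers, at 11.7 to 27.6 against 229 to 467 FPKM, were lower for 5 of 5. Endothelial markers summed to 87.1 to 96.8 FPKM *in vivo* and 20.6 to 49.6 *in vitro* (6 of 8 higher over both weeks), and erythroid markers to 3.72 to 5.89 against 0 to 0.195 FPKM (2 of 3 higher). The part that these cell types have in any difference below was not tested.

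The 52 genes lay on 19 chromosomes, with 26 on the plus strand, and were 259 to 20771 bases long, with a median of 1490. Their mean FPKM had a median of 4.93, beside 0.716 over the 343 lincRNA genes that were expressed enough to be tested and 5.76 over 13105 tested coding genes. From 2 to under 5 FPKM there were 27 genes, from 5 to under 20 there were 18, and 7 were at 20 or more. Together they made up 57.1% to 68.3% of all lincRNA FPKM in a library. Of all fragments they took 0.110% to 0.134% *in vivo* and 0.175% to 0.207% *in vitro*, ranges that did not overlap, whereas their summed FPKM, 471 to 599 *in vivo* and 452 to 775 *in vitro*, did overlap. Near the threshold, *Gm20186*, *AI838599* and *C130083M11Rik* were just inside at 2.04, 2.04 and 2.002 FPKM, and *Gm13470*, *1700096K18Rik* and *Gm14005* just outside at 1.999, 1.997 and 1.96 FPKM. The left-out *H19* and *Meg3* had means of 40.8 and 10.6 FPKM, and *Rian*, which the table does not class as a lincRNA, 7.01 FPKM.

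**Figure D1:**
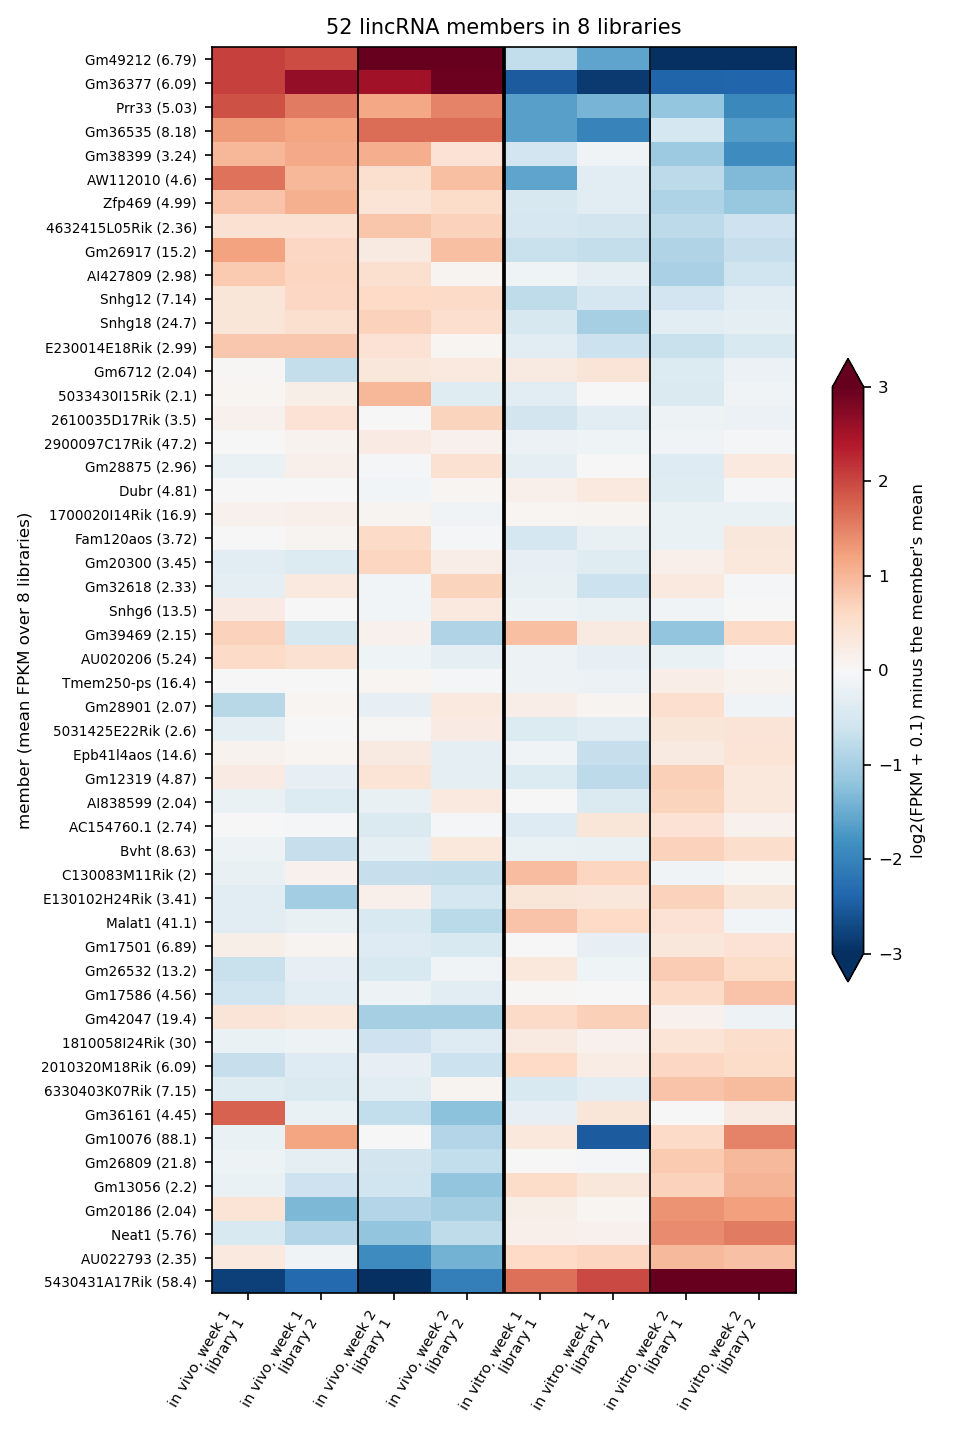
The 52 lincRNA genes (rows, from the highest to the lowest log2 fold change at week 2, with their mean FPKM) in each of the 8 libraries (columns, by group). Colour is log2(FPKM + 0.1) minus the gene's mean, red above and blue below, from *Gm49212* in the top row to *5430431A17Rik* in the bottom row, which is blue in the 4 *in vivo* libraries.

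For 15708 genes the log2 of FPKM plus 0.1 was fitted with limma. A call needed an adjusted p (Benjamini-Hochberg) under 0.01 and more than a 2-fold change, which is 1 on the log2 scale. At week 1, 10 of the 52 genes were higher *in vivo* and 1 was lower, which is 21.2% changed beside 12.9% of all genes tested (7.79% higher and 5.07% lower). The second week gave 10 higher and 8 lower, 34.6% beside 17.1% (9.02% higher and 8.05% lower). Over both weeks 12 were higher and 3 lower, 28.8% beside 15.4% (8.63% higher and 6.74% lower). Without the scaling between libraries the splits became 7 up and 7 down at week 1, 7 up and 14 down at week 2, and 8 up and 13 down over both weeks, so the balance of directions rests on it. The median log2 difference of the 52 genes was 0.18 at week 1 and -0.11 at week 2, where that of all genes was -0.01 and 0.00.

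Much of the excess over the background lay in genes that were in the set through 1 setting. Of the 35 genes that reached the threshold in both settings, 5 changed at week 1 (14.3%; 4 higher and 1 lower), 8 at week 2 (22.9%; 3 and 5) and 6 over both weeks (17.1%; 4 and 2). Of the other 17, 6 changed at week 1, 10 at week 2 and 9 over both weeks. Among the 291 tested lincRNA genes outside the set, 9.28% changed at week 1 and 14.4% at week 2, and among coding genes 14.0% and 18.4%. By pattern, 7 genes were higher *in vivo* at both weeks (13.5%, beside 5.54% of all genes tested) and 1 was lower at both (1.92% beside 3.79%). Of those 7, *Gm36377*, *Gm49212*, *Gm36535* and *Prr33* were in the set through the *in vivo* samples only. A rise at week 1 only was called for 3 (5.77% beside 2.22%), a rise at week 2 only for 3 (5.77% beside 3.47%), and a fall at week 2 only for 7 (13.5% beside 4.23%). Passing in 1 week only does not show that the weeks differ, and the test of that difference is given further on.

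**Figure D2:**
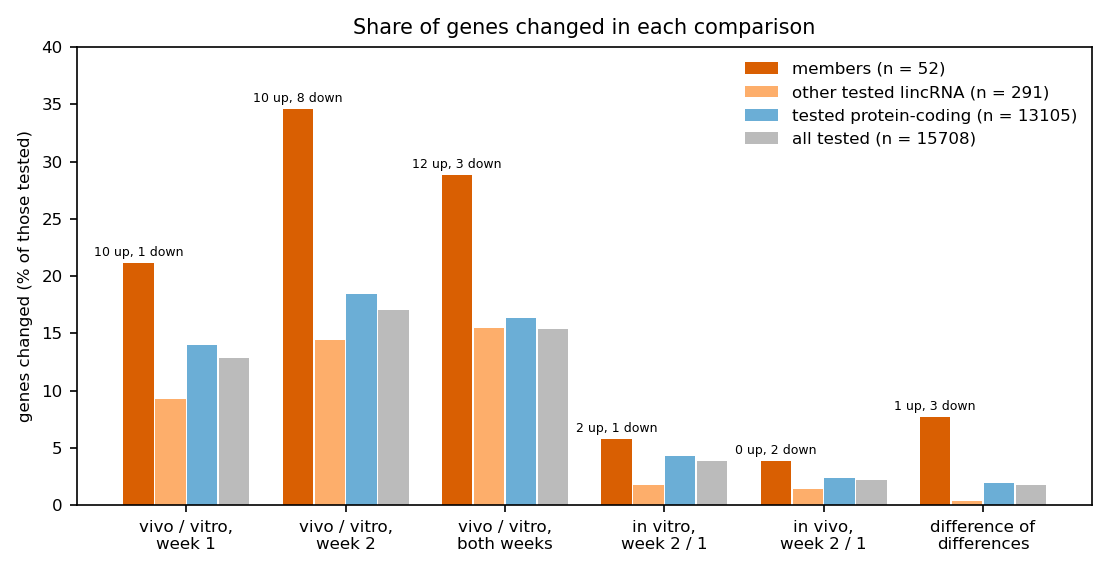
Share of genes called changed (percent, y axis) in each comparison for the 52 lincRNA genes, the 291 other tested lincRNA genes, tested coding genes and all tested genes, with the number of the 52 that were higher (up) and lower (down). At week 2 the 52 genes stand at 34.6% and all genes at 17.1%.

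The nuclear RNAs *Malat1* and *Neat1*, neighbours on chromosome 19, had a lower level in every *in vivo* library than in any *in vitro* library. *Neat1* (chr19:5824708-5845478, minus strand), the scaffold of paraspeckles, had 3.29 and 2.43 FPKM *in vivo* and 5.01 and 4.97 *in vitro* at week 1. At week 2 it had 1.94 and 2.65 FPKM *in vivo* and 12.3 and 13.5 *in vitro*. The groups did not overlap at either week, and the *in vitro* level was 5.60-fold higher at week 2 (2.30 ± 0.499 against 12.9 ± 0.842 FPKM, SD, n = 2). The log2 difference was -0.80 ± 0.18 (SE) at week 1, with a limma adjusted p of 0.0120, and -2.45 ± 0.18 at week 2, with 6.28e-05, and only the second was called. The difference between the weeks, -1.65 ± 0.26 with an adjusted p of 0.0126, did not pass. The table holds 1 value for the gene, so its short and long forms cannot be told apart. *Malat1* (chr19:5795690-5802672, minus strand), the RNA of nuclear speckles, had 31.0 and 33.0 against 70.0 and 57.8 FPKM at week 1, and 27.8 and 21.8 against 51.7 and 36.0 at week 2. Its libraries did not overlap at either week either. Its log2 differences of -0.99 ± 0.19 (adjusted p = 0.00615) and -0.81 ± 0.19 (adjusted p = 0.0119) stayed short of a 2-fold change, but without the scaling between libraries they were -1.33 and -1.14 and were called. Of 12 genes for paraspeckle proteins, measured as RNA, 0 were called at either week, beside 12.9% and 17.1% of all genes tested. Their median log2 difference was 0.04 and -0.13, with 5 and 7 at an unadjusted limma p under 0.05 and 0 called by limma voom. With 12 genes the count cannot show whether they followed *Neat1*. Of 17 speckle and splicing genes *Clk1* and *Clk4*, kinases of splicing factors, were higher at week 1 (1.15 and 1.16) and *Srsf5*, a splicing factor, was lower *in vivo* at both weeks (-1.17 and -1.29). The calls of *Clk1* and *Clk4* were lost without the scaling (0.81 and 0.82). *Neat1* is also induced by p53, and a link of its level here to p53 was not tested. Of 14 p53 target genes 3 were lower *in vivo* at week 1 and 6 at week 2, beside 5.07% and 8.05% of all genes tested. The number higher was 0 at each week (2 and 1 at an unadjusted limma p under 0.05, and 0 by limma voom). The numbers lower were 5 and 10 without the scaling, and 5 and 6 under quantile normalization.

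Norad and Cyrano varied little between libraries, the highest being 1.35 times the lowest for Norad and 1.27 times for Cyrano. Norad (*2900097C17Rik*, chr2:156388065-156392979, minus strand) had 46.5, 50.2, 55.9 and 51.5 FPKM in the *in vivo* samples and 41.3, 42.9, 44.0 and 45.3 in the *in vitro* samples. Every *in vivo* library lay above every *in vitro* library, yet the log2 differences were only 0.20 ± 0.07 and 0.27 ± 0.07 (limma adjusted p = 0.0520 and 0.0149), and without the scaling between libraries the value at week 2 was -0.066. About 51.6% of Norad's length is shared with the lincRNA *Gm7292* at 99.2% identity, but that copy had a mean of only 0.146 FPKM. Cyrano (*1700020I14Rik*, chr2:119594297-119607502, plus strand) had 18.4, 18.6, 17.9 and 15.7 FPKM *in vivo* and 17.7, 17.9, 14.7 and 14.6 *in vitro*, with log2 differences of 0.06 ± 0.07 and 0.19 ± 0.07 (adjusted p = 0.578 and 0.0727). In all 5 pairwise comparisons 7 genes had a log2 difference under 0.5 in size: Norad, Cyrano, *Tmem250-ps*, *Snhg6*, *Dubr*, *Fam120aos* and *Gm28875*. *Tmem250-ps* ranged from 14.5 to 18.9 FPKM, with log2 differences of 0.16 and -0.14. *Dubr*, known from muscle differentiation, had log2 differences of -0.22 and 0.19. Of the 2 Pumilio genes, limma and limma voom called 0 at either week, and 1 and 2 were higher at an unadjusted limma p under 0.05. Limma called 12.9% and 17.1% of all genes tested, so a count over 2 genes cannot set them apart.

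The snoRNA hosts in the set split into a pair that was higher *in vivo* and a pair that was not called. *Snhg18* (chr15:32240565-32244662, minus strand), which starts 148 bases from the start of *Sema5a* on the other strand, had 29.9 and 32.2 FPKM *in vivo* against 16.6 and 11.6 *in vitro* at week 1, and 37.1 and 32.6 against 18.6 and 19.1 at week 2. The lowest *in vivo* library was well above the highest *in vitro* library. The log2 difference was 1.16 ± 0.16 at week 1 (limma adjusted p = 0.00129), 0.88 ± 0.16 at week 2 (0.00344) and 1.02 ± 0.12 over both weeks (0.000296). The call at week 1 was lost without *in vitro* replicate 2 of week 1 (0.90, adjusted p = 0.00237) and without either *in vivo* library of that week (1.21 with 0.0119, and 1.10 with 0.0159). Without the scaling between libraries the differences of *Snhg18* were 0.82 at week 1 and 0.68 over both weeks, and neither was called. *Snhg12* (chr4:132308623-132311024, plus strand), with 5 snoRNAs inside it, had 8.57 and 10.3 against 3.87 and 4.63 FPKM at week 1 and 10.1 and 9.99 against 4.42 and 5.30 at week 2. This was a log2 rise of 1.13 ± 0.14 (adjusted p = 0.000736) and 1.04 ± 0.14 (0.000865), of which the second fell to 0.91 (0.00728) without *in vitro* replicate 1 of week 2. Both calls of *Snhg12* were lost without the scaling (0.79 and 0.71). *Snhg6* (16.02 and 13.5 FPKM *in vivo* and 12.02 and 11.7 *in vitro* at week 1) and *Epb41l4aos* (15.3 and 14.8 against 13.1 and 8.72) had log2 differences of 0.30 and 0.49 at week 1 and 0.15 and -0.34 at week 2, none of them called.

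All snoRNA hosts together showed the same mixture. Of 15 tested hosts, 6 were higher *in vivo* at week 1, namely *Gas5* (1.22), *Zfas1* (1.395), *Snhg8* (1.13), *Snhg5* (1.07), *Snhg18* and *Snhg12*, and *Snhg10* was lower (-1.73). Of all genes tested, 7.79% were higher and 5.07% lower at that week. At week 2, *Snhg8* (1.01), *Snhg5* (1.26) and *Snhg12* were higher and 0 were lower (3 at an unadjusted limma p under 0.05, and 1 by limma voom). The shares of all genes tested were then 9.02% higher and 8.05% lower. The median log2 difference of the list was 0.49 and 0.54. Without the scaling between libraries the median was 0.15 and 0.21, with 1 host higher and 1 lower at week 1, while at week 2 none was higher and 3 were lower, so calls in this list depend on the scaling. Core proteins of the snoRNPs (8 genes) and factors of nonsense-mediated decay (8 genes) gave 0 calls at either week, beside 12.9% and 17.1% of all genes tested. Lists of 8 genes are too short for a count of 0 to set them apart from those shares. In limma at an unadjusted p under 0.05, 2 of the snoRNP genes passed at week 1 and 3 at week 2, and 5 and 4 of the decay factors, and limma voom called 0.

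The strongest rises *in vivo* were of little-studied genes. *Gm36377*, *Gm49212*, *Gm36535* and *Prr33* were in the set through the *in vivo* samples only, with *in vitro* means of 0.253, 0.380, 1.97 and 1.00 FPKM. Their being higher *in vivo* was thus partly set by the choice of genes. *Gm36377* (chr13:70651005-70655787, minus strand), the gene whose promoter is shown above, had 8.35 and 12.5 FPKM *in vivo* at week 1 and 11.5 and 15.4 at week 2, and between 0.177 and 0.291 FPKM in the 4 *in vitro* libraries. Those low values rest on 2 or 3 fragments each. From the fragments, the *in vivo* level was 48.3 times the *in vitro* level at week 1 (exact 95% interval 20.4 to 150.4) and 46.5 times at week 2 (21.0 to 128.0), intervals that cover counting error only. The fitted log2 differences were 5.03 ± 0.25 and 5.11 ± 0.25 (limma adjusted p = 1.28e-05 and 9.49e-06). *Gm49212* (chr15:56046552-56049832, minus strand), the shortest gene of the set at 259 bases, had 7.58 and 7.11 FPKM *in vivo* and 1.00 and 0.517 *in vitro* at week 1, the latter from 4 and 2 fragments, a ratio of 9.61 (4.10 to 27.5). At week 2 it reached 16.8 and 21.3 FPKM *in vivo* and was at 0 in both *in vitro* libraries, at least 22.5-fold higher against a floor of 3 fragments per library. The fitted differences were 3.17 ± 0.27 and 7.57 ± 0.27 (adjusted p = 0.000156 and 3.08e-06), of which the second depends on the pseudocount and is no measure of size.

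*Gm36535* (chr5:111791555-111805689, plus strand) had 12.6 and 11.7 against 1.58 and 1.20 FPKM at week 1 and 16.6 and 16.6 against 3.53 and 1.55 at week 2. The groups were far apart in both weeks, with log2 differences of 3.05 ± 0.33 and 2.77 ± 0.33 (limma adjusted p = 0.000444 and 0.000543). *Prr33* (chr7:142491074-142506771, minus strand) lies antisense over *Lsp1*, a leukocyte protein gene, and *Tnnt3*, fast skeletal troponin T. It had 11.6 and 9.12 against 0.913 and 1.08 FPKM at week 1 and 6.87 and 8.68 against 1.29 and 0.720 at week 2, with log2 differences of 3.25 ± 0.27 and 2.87 ± 0.27 (adjusted p = 0.000124 and 0.000170). *Lsp1* itself was higher *in vivo* by 1.93 and 1.39, and whether the counting used strand is not given in the sources used here, so reads of the overlapping genes cannot be told apart. *Zfp469* (chr8:122269569-122272650, plus strand), whose human counterpart is tied to collagen and the brittle cornea syndrome, had 7.95 and 9.22 against 3.08 and 3.41 FPKM and 5.75 and 6.35 against 2.25 and 1.91. Its log2 differences were 1.37 ± 0.13 and 1.50 ± 0.13 (adjusted p = 0.000214 and 0.000114), and it was named here after its values were seen. *Zfp469* and *Prr33* bear the names of protein genes, so their RNA may be coding although both are classed as lincRNA here. Of the 10 fibroblast markers listed, *Col1a1*, *Col1a2*, *Col3a1*, *Dcn*, *Lum* and *Postn* were called higher *in vivo* at both weeks. The other markers were not called, and 1 was lower at an unadjusted limma p under 0.05 at each week. A link of *Zfp469* to these markers was not tested. *Gm26917* (chr17:39843013-39846341, plus strand), which lies in the ribosomal RNA repeats of that chromosome so that its reads cannot be assigned with certainty, had 30.1 and 19.97 against 8.14 and 7.92 FPKM and 15.7 and 24.6 against 6.95 and 8.02. Its log2 differences were 1.60 ± 0.25 and 1.38 ± 0.25 (adjusted p = 0.00229 and 0.00342). The call at week 1 was lost without either *in vitro* library of that week or *in vivo* replicate 1 (adjusted p = 0.0178, 0.0192 and 0.0176), and at week 2 without either *in vitro* library or *in vivo* replicate 2 (0.0260, 0.0168 and 0.0158), or without the scaling between libraries (1.05, 0.0113).

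**Figure D3:**
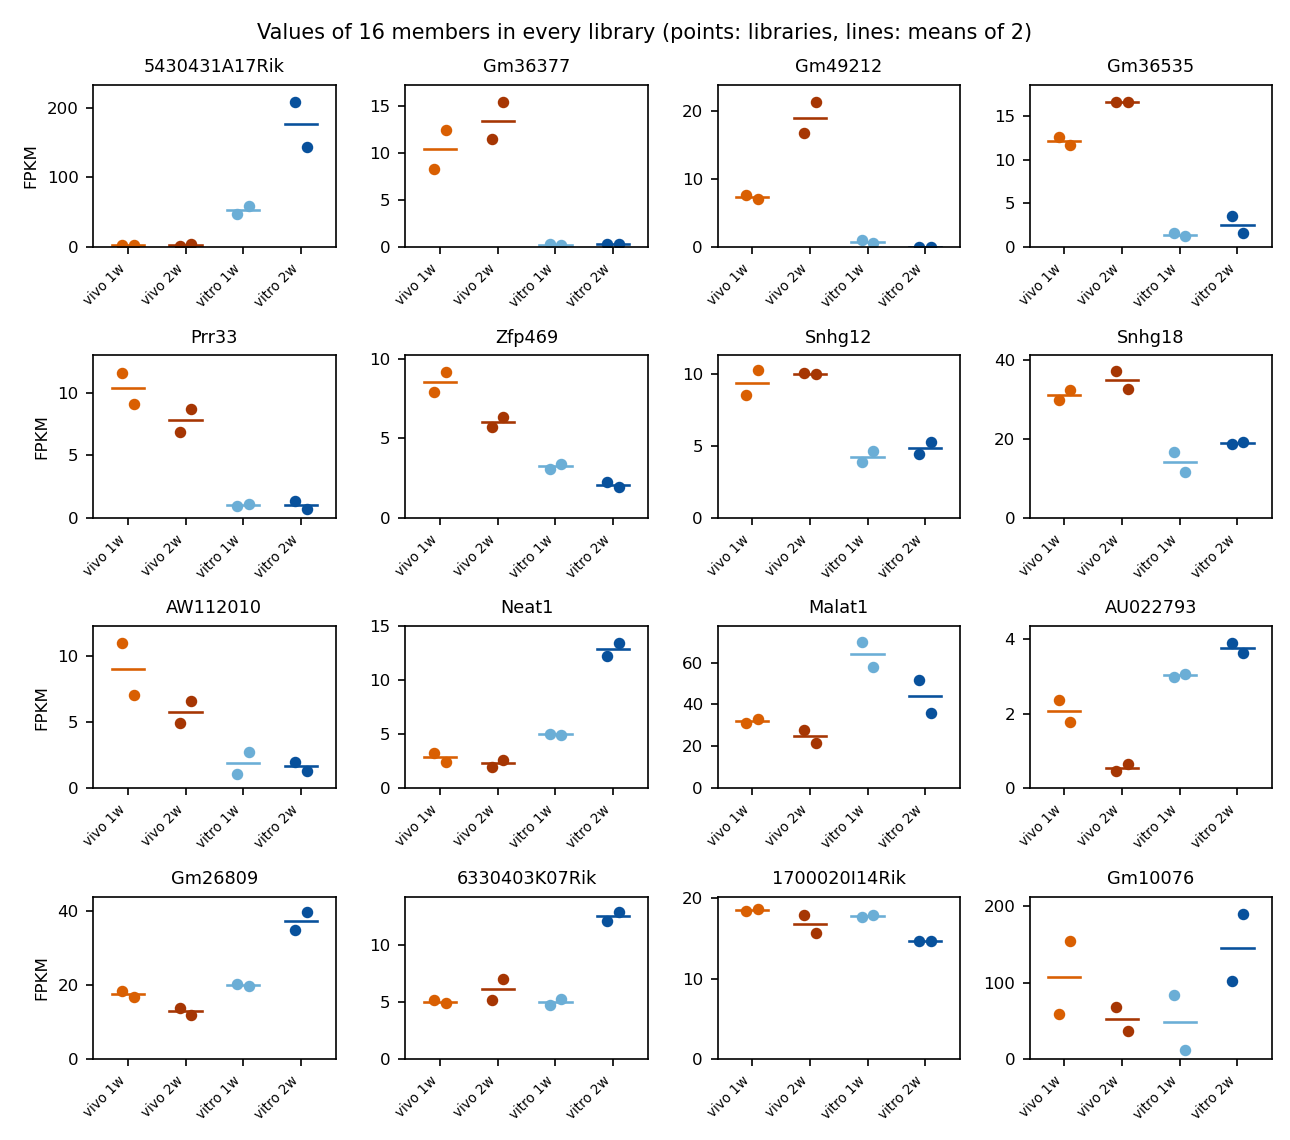
FPKM (y axis, linear and from 0, with its own scale in each panel) of 16 lincRNA genes in the 8 libraries, as points by group (x axis), with lines at the means of 2 libraries. The *in vivo* points of *Gm36377* and *Gm36535* lie far above the *in vitro* points, and those of *5430431A17Rik* far below.

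*AW112010* (chr19:11047617-11050566, minus strand), an RNA of inflamed and interferon-treated macrophages that is known to be translated, was higher *in vivo*. It had 10.98 and 7.08 against 1.10 and 2.78 FPKM at week 1 and 4.95 and 6.59 against 1.97 and 1.34 at week 2. No libraries overlapped, and the log2 difference was 2.26 ± 0.43 at week 1 (limma adjusted p = 0.00548), 1.75 ± 0.43 at week 2 (0.0133) and 2.01 ± 0.30 over both weeks (0.00102). The call at week 1 was lost without *in vitro* replicate 1 (1.63, 0.0202), *in vivo* replicate 1 (1.95, 0.0473) or *in vivo* replicate 2 (2.58, 0.0211) of that week, and narrowly (up to 0.0110) without any library of week 2, while the call over both weeks was kept under every alternative. Of 12 interferon response genes, 12 were higher *in vivo* at week 1 and 9 at week 2, beside 7.79% and 9.02% of all genes tested. Their median log2 differences were 3.90 and 2.34, and a link of *AW112010* to these genes was not tested. The set's other RNA of the inflammation list, *Neat1*, went the other way.

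Further genes were called higher *in vivo* at 1 week only. *Gm38399* (chr1:135606447-135688105, minus strand), which overlaps *Nav1* on the same strand by 849 bases, had 5.24 and 5.74 against 1.70 and 2.36 FPKM at week 1 and 5.55 and 3.52 against 1.14 and 0.626 at week 2, with log2 differences of 1.41 (limma adjusted p = 0.0109) and 2.25 ± 0.32 (0.00113). *Nav1* was higher by 1.64 at week 2. The rest were named after their values were seen. *E230014E18Rik* was called at week 1 only (1.29 ± 0.18, 0.00129, against 0.80 with 0.00846 at week 2), and it lost that call without *in vitro* replicate 2 (1.12, 0.0112) or either *in vivo* library of week 1 (0.0138 and 0.0145), and without the scaling between libraries (0.96, 0.00262). *4632415L05Rik* (0.99 and 1.47 ± 0.13) and *AI427809* (0.93 and 1.07 ± 0.19) were called at week 2 only, and *AI427809* lost its call without *in vitro* replicate 1 or *in vivo* replicate 1 of week 2 (0.87 and 0.88) and without the scaling (0.75). At both weeks each of these genes had the same sign.

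*5430431A17Rik* (chr7:44484517-44485413, plus strand) was the opposite case, and the only gene of the set called lower *in vivo* at both weeks. It had 2.04 and 2.90 FPKM *in vivo* and 47.1 and 59.0 *in vitro* at week 1, and 1.23 and 3.53 *in vivo* and 208 and 144 *in vitro* at week 2. The *in vitro* level was 21.5-fold higher at week 1 (2.47 ± 0.605 against 53.01 ± 8.41 FPKM, SD, n = 2) and 73.9-fold higher at week 2 (2.38 ± 1.63 against 176 ± 44.97). The log2 differences were -4.38 ± 0.45 and -6.30 ± 0.45 (limma adjusted p = 0.000339 and 5.07e-05), and they were called under every alternative. Within culture the gene went up by 1.71 ± 0.45 from week 1 to week 2, which did not pass (0.0330). The nearest coding gene, *Emc10* at 4.52 kb, had log2 differences of 0.50 and 0.48 and did not move with it. Mesothelial markers and 7 of 9 cardiomyocyte markers were also lower *in vivo* at each week, the cardiomyocyte markers summing to 16.4 to 19.6 against 166 to 188 FPKM at week 1 and to 27.6 to 48.8 against 1032 to 1225 at week 2. Among the latter *Pln*, a regulator of the calcium pump, was higher *in vivo* (2.51 and 3.97), as was *Myl2*, a ventricular myosin light chain, at week 2 (2.39).

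A group of 7 genes was called lower *in vivo* at week 2 only, *Neat1* among them. Some of these were also lower at week 1 without a call, and only *Gm26809* and *AU022793* passed the test of the difference between weeks given below. *Gm26809* (chr6:18844220-18847360, plus strand) had 18.2 and 16.6 against 20.3 and 19.6 FPKM at week 1 and 13.8 and 11.998 against 34.7 and 39.5 at week 2. A small gap at the first week was thus a wide one at the second, with log2 differences of -0.20 (limma adjusted p = 0.154) and -1.52 ± 0.10 (3.35e-05). *Gm20186* (chr6:18845910-18848207, minus strand), which overlaps it by 1451 bases on the opposite strand and starts 372 bases from *Lsm8*, had 2.20 and 0.585 against 1.86 and 1.72 FPKM and then 0.844 and 0.776 against 4.34 and 3.99. Its difference of -2.23 ± 0.49 at week 2 (0.00841) was lost without any single library other than the *in vivo* libraries of week 1 (0.0196 to 0.0459), and without strand its reads and those of *Gm26809* cannot be told apart. *Lsm8*, a small RNA-binding protein gene, had log2 differences of -0.05 and -0.11 from *in vitro*. *AU022793* (chr15:39962649-39967024, plus strand) had 2.36 and 1.78 against 2.97 and 3.06 FPKM at week 1 and 0.450 and 0.658 against 3.89 and 3.63 at week 2. The *in vitro* level at week 2 was 6.78-fold higher, a log2 difference of -2.58 ± 0.20 (7.71e-05), after -0.53 (0.0714) at week 1.

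*Gm13056* (chr4:141278439-141279794, plus strand) had 1.67 and 1.22 against 2.88 and 2.49 FPKM at week 1 and 1.26 and 0.803 against 3.20 and 4.04 at week 2, with log2 differences of -0.86 (limma adjusted p = 0.0293) and -1.74 ± 0.25 (0.00122). Without *in vitro* replicate 2 of week 2 the second was -1.58 with 0.0126. It was the only changed gene whose nearest coding gene changed the other way, *Arhgef19* being higher *in vivo* by 1.78 at week 2. *6330403K07Rik* (chr11:71031941-71033513, minus strand) had 5.15 and 4.88 against 4.74 and 5.29 FPKM at week 1 (0.00), when the settings overlapped, and 5.16 and 7.03 against 12.1 and 12.8 at week 2 (-1.04 ± 0.15, 0.00115). That call was lost without *in vitro* replicate 2 (-0.99, 0.0117) or *in vivo* replicate 1 (-0.82, 0.00249) of week 2. *2010320M18Rik*, named after its values were seen, was at -0.95 (0.00663) and -1.03 ± 0.19 (0.00365), and lost its call without either *in vitro* library or *in vivo* replicate 2 (-0.82, 0.0198) of week 2.

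Of the genes of the set that hold a short coding sequence, *1810058I24Rik* and *Gm10076* were called in none of the comparisons. *1810058I24Rik* (chr6:35252654-35263496, plus strand) encodes a mitochondrial micropeptide known from macrophages. It had 25.3 and 26.1 against 35.2 and 31.8 FPKM at week 1 and 18.7 and 22.1 against 38.9 and 42.1 at week 2. The libraries did not overlap, and the log2 difference of -0.99 ± 0.10 at week 2 had a limma adjusted p of 0.000214 but was just under a 2-fold change. The 16 macrophage markers summed to 2171 to 2617 against 5398 to 6624 FPKM at week 2, with 9 called lower *in vivo* and 1 higher. At week 1, 1 of them was called lower and 2 higher. A link of *1810058I24Rik* to these markers was not tested. *Gm10076*, with the *Rpl41* copy shown above, was the least repeatable of the abundant genes. It had 59.4 and 154 FPKM *in vivo* and 84.2 and 11.9 *in vitro* at week 1, and 67.6 and 36.8 *in vivo* and 101 and 190 *in vitro* at week 2. The highest library was 15.99 times the lowest, against 1.53 times for *Rpl41* (365 to 557 FPKM), and its log2 differences of 1.59 ± 0.91 (0.205) and -1.47 (0.221) were not called. Its reads cannot be assigned with certainty, since the copy covers 99.7% of its length at 99.5% identity. In all, 7 genes had such a copy over more than 50 percent of their length, and the 45 others gave 11 calls at week 1 and 17 at week 2, so the counts above do not rest on them.

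*Bvht*, known from cardiac lineage commitment of stem cells, was in the set at a mean of 8.63 FPKM. It had 7.45 and 5.05 FPKM *in vivo* and 7.16 and 6.99 *in vitro* at week 1, and 6.84 and 10.2 against 13.3 and 11.99 at week 2. The week 2 groups did not overlap, but the log2 differences of -0.20 and -0.59 had limma adjusted p of 0.513 and 0.0683. *Bvht* was named after its values were seen. Of the 5 heart and smooth muscle RNAs listed, only *Carmn* was expressed enough to be tested, and it was lower *in vivo* over both weeks (-1.62).

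Between the weeks fewer genes moved. In culture 2 of the 52 genes rose and 1 fell (5.77% beside 3.81% of all genes; 2.76% higher and 1.05% lower). *Neat1* rose by 1.35 ± 0.18 (limma adjusted p = 0.00357) and *6330403K07Rik* by 1.30 ± 0.15 (0.00178). *Gm49212* was lower at week 2, where it was at 0, after only 4 and 2 fragments at week 1. The size of its fall depends on the pseudocount and ran from -6.19 to -0.80 over the alternatives. In culture limma voom called 0 of the 52 genes lower. The rise of *Neat1* was lost without any single *in vitro* library (0.0234 to 0.0331), that of *6330403K07Rik* likewise (0.0144 to 0.0199), and the fall of *Gm49212* without *in vitro* replicate 2 of week 2 (0.0102). In the hearts 0 genes rose and 2 fell (3.85% beside 2.18%; 1.23% higher and 0.949% lower). Of the rises 4 had an unadjusted limma p under 0.05, and limma voom called 0. *Gm42047* (chr8:121833247-121841178, plus strand) had 23.5 and 22.1 FPKM *in vivo* at week 1 and 8.85 and 8.92 at week 2, 2.57-fold less. In culture it had 26.7 and 29.5 and then 19.5 and 16.1 FPKM. The log2 fall was -1.35 ± 0.10 *in vivo* (0.000954) and -0.66 *in vitro* (0.00577), and the first was lost without either *in vivo* library of week 1 (-1.31 with 0.0145, and -1.39 with 0.0111). *AU022793* was lower by -1.74 ± 0.20 *in vivo* (0.00318), a call lost without any single library other than *in vivo* replicate 2 of week 2 (0.0110 to 0.0328). Proliferation genes were lower at week 2 in both settings, 3 of 8 in culture and 6 of 8 in the hearts.

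The gap between the settings was then compared between the weeks, and 4 of the 52 genes passed (7.69% beside 1.73% of all genes). *Gm49212* had the larger *in vivo* excess at week 2, by 4.40 ± 0.39 (limma adjusted p = 0.00342; 0.573% of all genes in that direction). That value depends on the pseudocount, as the gene was at 0 *in vitro* at week 2, and is no measure of size: it ran from 2.06 to 7.55 over the alternatives. *Gm26809* (-1.32 ± 0.14, 0.00427), *Gm17501* (-1.07 ± 0.15, 0.00854) and *AU022793* (-2.04 ± 0.29, 0.00897) went lower *in vivo* relative to culture (1.15% of all genes). *Gm17501* (chr3:145650312-145677580, plus strand), which starts 331 bases from *Cyr61*, a matricellular protein gene, had 7.66 and 7.17 against 6.77 and 5.69 FPKM at week 1 and 5.16 and 4.89 against 8.62 and 9.18 at week 2. Its libraries were thus in the opposite order at the second week, where the log2 difference was -0.81 ± 0.10 (0.000717) and under a 2-fold change. When single libraries were left out, the calls of *Gm26809*, *Gm17501* and *AU022793* were lost each time. That of *Gm49212* was lost each time but without *in vitro* replicate 2 of week 1. Limma voom called 3 of the 52 genes lower and 0 higher, and only 2 of these calls were shared with the main fit. Over the 35 genes at the threshold in both settings, 26 had a negative difference between the weeks, with a median of -0.30. Of the other 17, 9 were above 0 and 8 below, with a median of 0.07, while the 291 tested lincRNA genes outside the set had a median of -0.23 and all tested genes one of -0.0085.

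**Figure D4:**
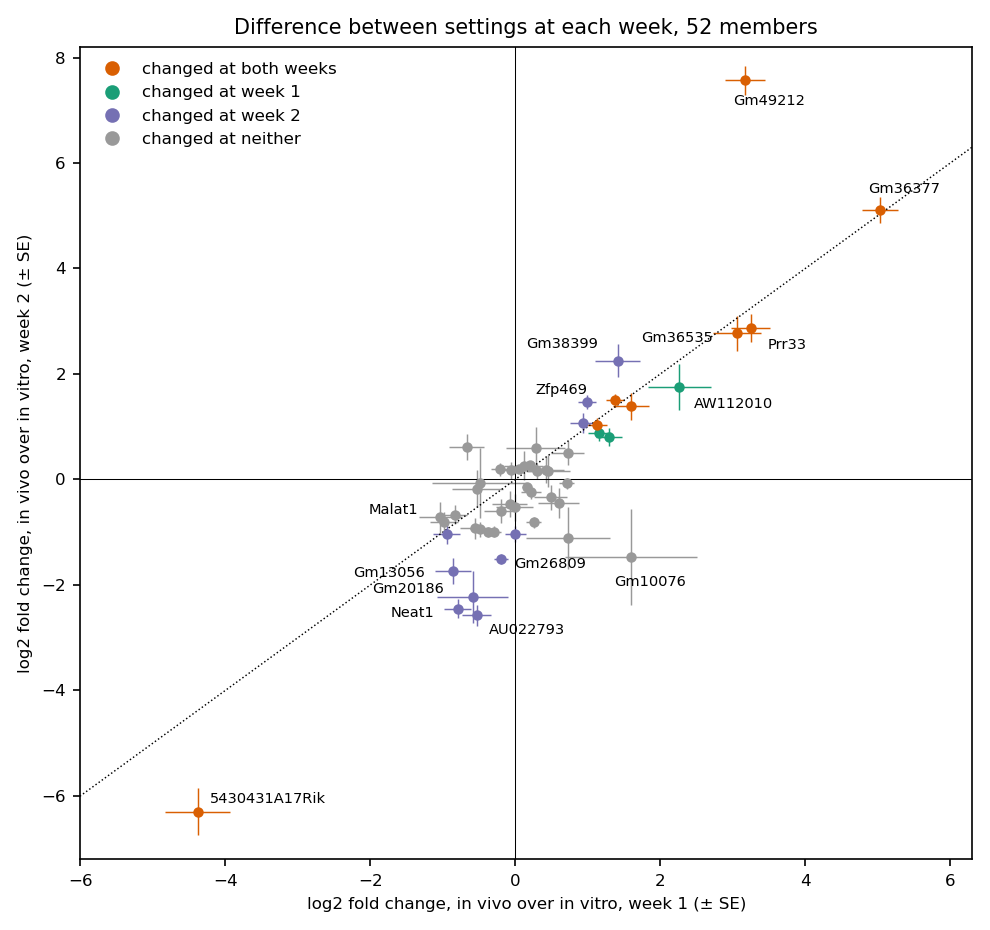
Log2 fold change (*in vivo* over *in vitro*) at week 1 (x axis) and week 2 (y axis) for the 52 lincRNA genes, with SE bars, the diagonal dotted and the colour showing at which week a gene was called. *5430431A17Rik* lies at the lower left and *Gm36377* and *Gm49212* at the upper right, while *AU022793*, *Neat1* and *Gm26809* lie below the diagonal.

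Most of the 52 genes had a coding gene close by. The median distance was 4.55 kb, 41 had a coding gene within 50 kb, and 9 lay head to head with a coding gene whose start was within 1 kb. Of the genes changed at week 1, 7 had a tested coding gene within 50 kb, which was called in the same direction for 3, *Lsp1* beside *Prr33* (1.93), *Ms4a8a* beside *AW112010* (2.75) and *Ckap4* beside *E230014E18Rik* (1.24). At week 2 this was 2 of 12, *Lsp1* (1.39) and *Nav1* (1.64), with 1 in the other direction and 9 not called. Thus *Ice1* beside *Gm36377* had 0.56 and 0.43, *Frmd8* beside *Neat1* -0.79 and -0.79, and *Sema5a* beside *Snhg18* -0.45 and -0.05, none of which was called. Of all tested coding genes, 14.0% were called at week 1 and 18.4% at week 2, and these counts are too few to set the neighbours apart from that. *Lsp1* and *Nav1* overlap the genes beside them, so reads may be shared.

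**Figure D5:**
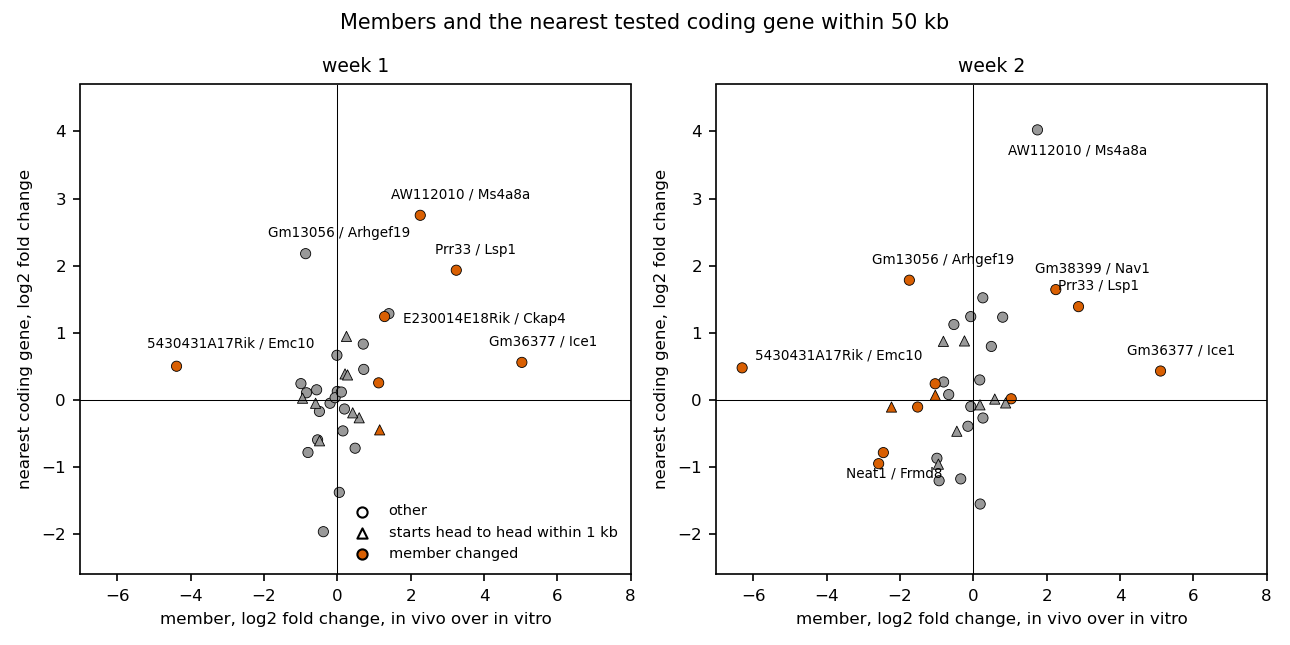
Log2 fold change (*in vivo* over *in vitro*) of each lincRNA gene (x axis) and of its nearest coding gene within 50 kb (y axis), in panels for week 1 and week 2. Orange points are changed lincRNA genes and triangles are pairs that start head to head within 1 kb. Most coding neighbours lie near 0, and *Prr33* with *Lsp1* lies at the upper right in both weeks.

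The promoters of the 27 genes that matched RefSeq had a median of 53.7% GC and 13 CpG, beside 52.7% and 7 over all promoters. TATAAA was in 6 of 27 (13.6% of all promoters), GGAATG, the letters that TEAD factors bind, in 8 (14.7%), TTCNNNGAA, those that STAT factors bind, in 2 (8.30%), and TGANTCA, those of AP-1, in 1 (7.81%). Each was searched on both strands over 300 bases. These counts are too few to set the genes apart, and no test was made.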

How the data were processed

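RNA of sorted eGFP+ cells was made into mRNA libraries with a SMARTER kit and sequenced by Novogene. The submitters' processing notes name CASAVA, HISAT2 2.0.5 and mm10, while the counting tool and its use of strand are not given in the sources used here. The deposited values are FPKM per gene and library, made by the authors' provider. Multiplied by gene length, 100% of values above 0 came out as whole multiples of 1 unit per library (tolerance 0.01), which gave the fragments, and intervals and floors from them cover counting error only. Of the gene identifiers shared with GENCODE vM21, 98.3% had the same coordinates on GRCm38. All 8 columns were matched to samples.

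Genes that reached an FPKM of 0.5 in 2 or more libraries were fitted with limma 3.58.1 (R 4.3.3) on log2(FPKM + 0.1), with 4 group means, or setting with week as covariate, and a variance trend. The authors used DESeq2 at a p under 0.01 and a fold over 2, and those thresholds were kept, but the unit allowed no count test as the main test. A simulated data set served as a check. Replicates differed by more than sampling noise (chi-square per member 7.07 to 14.0). Same-numbered replicates correlated at -0.0199 and -0.0219 between settings and at -0.0107 between weeks, so numbers were not taken as pairs. The 52 genes and all lists were chosen with earlier results of these data known. Named are the 10 genes of highest mean, in each comparison the 5 largest changed each way whose libraries did not overlap, genes in the lists, their nearest coding genes, and those nearest the threshold. Sequences and promoters are from RefSeq (GRCm38.p6) and GENCODE. Tables were handled with Python 3.11.15, pandas 2.3.3, numpy 2.4.6 and scipy 1.17.1, and plots with matplotlib 3.10.9. Alternatives tried were another pseudocount, filter or scaling, fewer groups, a replicate block, limma voom, another threshold, no variance trend, and leaving out each library.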

Additional observations from a re-analysis of the deposited data

Results flagged for a closer look

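For 4 lincRNA genes the gap between settings was not the same at week 2 as at week 1, by limma's interaction contrast at an adjusted p under 0.01. The change in the log2 difference was -1.32 for *Gm26809*, -1.07 for *Gm17501*, -2.04 for *AU022793* and 4.40 for *Gm49212*. The last is set by the pseudocount, since *Gm49212* was at 0 *in vitro* at week 2, and ran from 2.06 to 7.55 over the alternatives. Each of these calls was lost when the replicate number entered as a block, with adjusted p of 0.0348, 0.0356, 0.0453 and 0.0315 in that order. The groups held 2 libraries each, too few to look for a library far from the others within a group.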

How the results depend on the processing

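Of 53 called differences of single lincRNA genes, 24 were called under every alternative and 0 changed direction. With an adjusted p under 0.05 and no minimum fold, the changed genes numbered 24 at week 1, 29 at week 2, 29 over both weeks, 17 between weeks in culture, 9 between weeks in the hearts and 9 for the difference between weeks, beside 42.0%, 49.8%, 50.7%, 25.1%, 15.8% and 9.92% of all genes in that order. With only the groups compared in the fit, they numbered 11 at week 2 and 0 between weeks in either setting. With the replicate number as a block they were 11, 15 and 13 for the settings, and 0 for each comparison between weeks and for the difference between weeks. Limma voom gave 1 between weeks in the hearts. The difference between weeks gave 0 without a filter on low values and 0 without the variance trend. Leaving out each library in turn gave 8 to 11 at week 1, 15 to 18 at week 2, 14 to 17 over both weeks, 0 to 4 in culture, 0 to 2 in the hearts and 0 to 1 for the difference between weeks, with fewer samples in each fit. Signs were compared only for differences called under at least 1 setting, and turned only where the main fit made no call. These were *Gm20186* at week 1 (0.28 without *in vivo* replicate 2 of week 1, and -1.46 without replicate 1), Norad without the scaling between libraries (-0.066 at week 2 and -0.11 over both weeks) and *5033430I15Rik* at week 2 (-0.10 without *in vivo* replicate 1 of week 2, and 1.27 without replicate 2). Differences called under no setting are outside this list, and among them Norad at week 1 also fell below 0 without the scaling. The cause of the other shifts was not tested. Depth limits *Gm36377* and *Gm49212* *in vitro*, where a library held at most 4 fragments. Called differences at week 2 also rest on few fragments *in vivo* for *Gm13056* (8 and 5), *AU022793* (7 and 10) and *Gm20186* (10 and 9).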

Other observations

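Further members were named after their values were seen. *Gm36161*, which matches *Gm21188* at 95.7% identity, had 12.8 and 3.20 FPKM in the *in vivo* samples of week 1 and between 1.5001 and 4.75 FPKM in the other 6 libraries. *Gm28901*, with 86.5% of its length in common with *Hnrnpf* at 99.5% identity, had 1.08 to 2.90 FPKM, where *Hnrnpf* had 43.7 to 59.7 FPKM. *AU020206* had 7.66 and 7.00 FPKM *in vivo* at week 1 and 4.26 to 4.96 FPKM in the other 6 libraries, a log2 difference of 0.71 between the settings at week 1 (limma adjusted p = 0.00178) and of -0.70 between the weeks *in vivo* (0.00765), both under a 2-fold change.

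The hosts of microRNAs in the set were not called. *E130102H24Rik*, which hosts *Mir101a*, had log2 differences of -1.03 at week 1 (limma adjusted p = 0.0275) and -0.72 at week 2 (0.0805). *Gm26532*, which overlaps *Mir24-2* by 2 bases, had 7.80 and 10.5 against 15.6 and 11.4 FPKM at week 1 and 9.12 and 11.5 against 21.2 and 18.2 at week 2, with a log2 difference of -0.93 (0.00848) at week 2. Among 9 tested microRNA hosts outside the set, *Mirg* was higher and *Mir22hg* lower *in vivo* at both weeks.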
